A study of Homo sapiens with 4 samples.

Results

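The 4 genes described here, *TUBB1*, *ESPN*, *MYL4* and *CORO1A*, encode parts or regulators of the cytoskeleton, and they are 4 of the 143 genes in the authors' deposited table of the comparison between TRIAC-treated and control K562 cells. They were found by their symbols. They had been chosen from the measured values of this same comparison, so these values are given as a description, with no test. K562 is an established human erythroleukemia cell line, and TRIAC is a metabolite of thyroid hormone that binds thyroid hormone receptors. The control group has 2 libraries of K562 cells given DMSO, and the treated group has 2 libraries of K562 cells given 20 µM TRIAC, for 48 h in both groups. Cells of both groups also received 10 µM hemin, which drives K562 cells towards the erythroid lineage. An untreated group without hemin was not analysed here, and all libraries come from a single cell line.

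The cytoskeleton is built from filaments of actin, tubes of tubulin and intermediate filaments, together with the motors and binding proteins that act on them. Blood cells use distinct members of these families. Megakaryocytes, the precursors of platelets, make their own β-tubulin, red cells support their membrane with a network of spectrin and short actin filaments, and leukocytes depend on rapid turnover of actin for migration. *TUBB1* encodes the β-tubulin of megakaryocytes and platelets, which forms the ring of microtubules at the platelet margin. *ESPN* encodes espin, which bundles actin filaments in the stereocilia of sensory hair cells and in microvilli. *MYL4* encodes an essential light chain of myosin known from the embryonic muscle and the cardiac atrium. *CORO1A* encodes coronin 1A, an actin-binding protein of leukocytes that takes part in the turnover of actin filaments. By this background *TUBB1* and *CORO1A* belong to blood cell lineages, while *ESPN* and *MYL4* are best known from other tissues.

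RefSeq promoter sequences were matched for 2 of the 4 genes, and *ESPN* and *MYL4* had no match. The upstream sequences of the matched genes, *TUBB1* and *CORO1A*, are shown. These genes differed in opposite directions between the groups. The sequences are the 250 bases before the start site that RefSeq's table uses, on the plus strand of GRCh38.p14, at chr20:59019179-59019428 for *TUBB1* and at chr16:30183352-30183601 for *CORO1A*. The *TUBB1* sequence ends at the base before the first exon of the canonical GENCODE transcript and lies inside the longer span that RefSeq gives the gene. The *CORO1A* sequence ends at the base before the RefSeq gene. Capitals mark the 2 motifs found, GAGGAA and CCACCC, in either orientation.
TUBB1: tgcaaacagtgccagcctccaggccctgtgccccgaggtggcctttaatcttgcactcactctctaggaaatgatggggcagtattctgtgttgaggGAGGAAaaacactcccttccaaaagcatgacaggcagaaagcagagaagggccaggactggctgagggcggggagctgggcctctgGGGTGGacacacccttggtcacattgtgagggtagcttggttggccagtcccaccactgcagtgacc
CORO1A: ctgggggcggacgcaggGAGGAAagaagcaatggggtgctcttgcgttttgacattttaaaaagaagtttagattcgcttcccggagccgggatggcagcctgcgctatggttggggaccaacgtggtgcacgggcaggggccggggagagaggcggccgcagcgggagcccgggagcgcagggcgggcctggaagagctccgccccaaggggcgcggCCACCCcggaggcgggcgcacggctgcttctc

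Both sequences held the same 2 of the 7 motifs searched on both strands. The motif GAGGAA, which PU.1 and other ETS factors can bind, began 153 bases before the start of *TUBB1* and 233 bases before the start of *CORO1A*. The motif CCACCC, which KLF factors can bind, lay 32 bases before the start of *CORO1A*. In *TUBB1* it lay on the opposite strand and appears as GGGTGG in the sequence above, 67 bases before the start. Upstream sequences of this length held GAGGAA in 23.6% and CCACCC in 31.3% of 35116 promoters, so these letters are common. The matches did not overlap one another. The letters AGATAA and TGATAA of GATA factors, AGGTCA of thyroid hormone receptors, TGAGTCA of NF-E2 and AP-1 and the E-box CAGCTG were not found in these 2 windows, and they occurred in 9.17%, 6.66%, 12.1%, 4.20% and 14.0% of the upstream sequences, respectively. G and C made up 57.6% of the *TUBB1* sequence and 68.0% of the *CORO1A* sequence, against a median of 58.0% over all promoters. A motif match is a description of the letters and no evidence of binding.

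TRIAC-treated cells had higher values than control cells for *TUBB1*, *ESPN* and *MYL4* and a lower value for *CORO1A*. The deposited table gives 1 expression value per group, in an unstated unit, and from it no SD, interval or test could be computed for these differences. So 3 of the 4 genes were in the higher direction, where 42.7% of all rows lie at 2-fold or more, and 1 was in the lower direction, where 57.3% lie. Every row of the table differs by at least 2.73-fold, so the 2-fold limit removed none. The median log2 ratio of the 140 rows above 0 in both groups was -1.82. Relative to it the log2 ratios of the 4 genes were 6.58 for *TUBB1*, 6.34 for *ESPN*, 3.56 for *MYL4* and -2.54 for *CORO1A*. None of the 4 genes could change direction in this step. Subtracting a negative median raises every ratio, and the ratio of *CORO1A* lies below the median. Because the table holds the genes that the authors' comparison selected, these shares are no measure of how often genes changed in the cells. In bulk RNA fewer cells of a type and less RNA per cell cannot be told apart.

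The expression value of *TUBB1* was 34.2 with DMSO and 926.6 with TRIAC. This is a ratio of 27.1, or 4.76 on the log2 scale. By this ratio *TUBB1* was the 5th highest of the 140 rows with values above 0 in both groups. Among 21 tubulin genes it was the only one with a row, and the other 20, which include the β-tubulins that most cells use, were not analysed here. It was also the only one of 24 genes of the platelet cytoskeleton and of megakaryocytes with a row. The integrin, glycoprotein and granule genes that define megakaryocytes, *ITGA2B*, *ITGB3*, *GP1BA*, *GP9*, *PF4* and *PPBP*, have no row, and whether other megakaryocyte genes moved with *TUBB1* was not tested.

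The *TUBB1* gene lies on chromosome 20 from 59016438 to 59026654, and its canonical transcript has 4 exons and 3321 bases. The last 1180 of the exonic bases, 35.5% of the transcript, also lie in an exon of *ATP5F1E*, which encodes a subunit of the mitochondrial ATP synthase on the opposite strand. Of the 50-base windows of the *TUBB1* transcript, 34.6% occur in *ATP5F1E* and in no other gene. The TruSeq RNA kit used for the libraries does not mark strand, so reads from this stretch cannot be told apart between the 2 genes. *ATP5F1E* has no row. The nearest row to *TUBB1* on the chromosome is *SLMO2-ATP5E*, a read-through gene that joins *ATP5F1E* to the gene beside it, from 59028678 to 59042846. Its value was 42.9 in control cells and is listed at 0 in TRIAC-treated cells, opposite in direction to *TUBB1*. The part of *ATP5F1E* reads in the value of *TUBB1* was not tested.

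**Figure D1:**
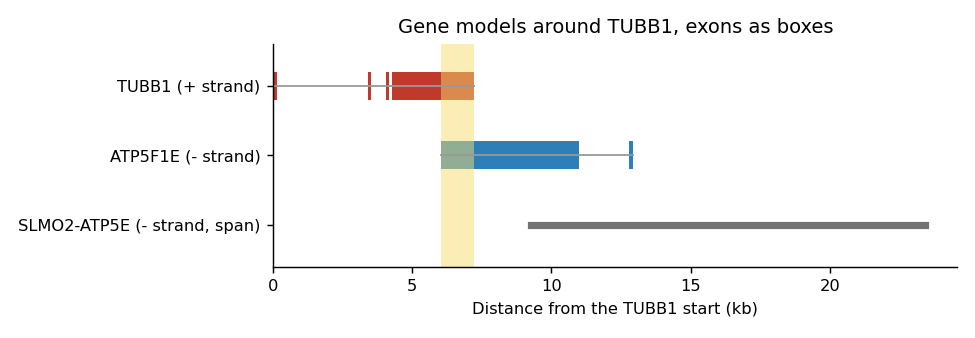
Gene models around *TUBB1*. The horizontal axis is the distance from the start of the canonical *TUBB1* transcript in kb and boxes are exons of all GENCODE 44 transcripts; the bar of *SLMO2-ATP5E* is its RefSeq span and the yellow band marks the 1180 exonic bases that *TUBB1* shares with *ATP5F1E*.

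*ESPN*, the actin bundler, had a value of 23.3 with DMSO and 532.8 with TRIAC. The ratio was 22.9, or 4.52 on the log2 scale, which placed it 9th from the highest of the 140 rows. Its ratio and that of *TUBB1* thus lie close together, and without replicate values their order cannot be tested. Both ratios rest on low control values, and 23 of the higher rows, *ESPN* included, have a DMSO value at or below that of *ESPN*. The depth of the libraries is unknown, so the precision of these ratios cannot be given. Of 26 genes listed for the bundling and crosslinking of actin, *ESPN* alone has a row. Another actin bundler with a row, *DMTN*, was listed under the red cell membrane skeleton. The gene lies on chromosome 1 from 6424776 to 6461370, with 13 exons in its canonical transcript. Of its 50-base windows, 5.04% also occur in the pseudogene *ESPNP* and 3.15% in *TNFRSF25*, whose end overlaps the end of *ESPN* on the opposite strand. Most of the transcript is therefore unique at this window length.

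*MYL4* had a value of 320.7 with DMSO and 1074 with TRIAC, a ratio of 3.35 and a log2 ratio of 1.74. This was the lowest ratio of the 60 higher rows above 0 in both groups, whose median log2 ratio was 2.89. Not divided by length, the gain in expression value was 753.7 all the same, between 509.5 for *ESPN* and 892.3 for *TUBB1*. *MYL4* started from a higher value. Per kb of listed length the gain of *MYL4* was the largest of these genes, from 361.6 to 1211. *TUBB1* went from 9.79 to 265.0 per kb and *ESPN* from 6.72 to 154.0. Of 41 genes of myosin chains and their kinases *MYL4* alone has a row. The gene lies on chromosome 17 from 47189433 to 47227650, and its canonical transcript has 7 exons and 855 bases. None of its 806 windows of 50 bases occurs in another gene, although the proteins of *MYL3* and *MYL6*, other essential light chains, match that of *MYL4* at 80.5% and 78.1% of aligned residues.

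*CORO1A* had a value of 127.1 with DMSO and 6.18 with TRIAC. This is 20.6 times lower, or -4.36 on the log2 scale, and it was the 13th lowest ratio of the 140 rows. With a pseudocount of 10 the log2 ratio was -3.08, a smaller difference. The treated value is near the low end of the table, whose lowest value above 0 is 0.55. Of the lower rows 14 have a treated value of 6.18 or less, with *CORO1A* itself and the rows at 0 among them. The depth of the libraries is unknown, so the precision of a value this low cannot be given. Of 30 genes of coronins and of actin turnover, *CORO1A* and *GMFG* have a row. *GMFG*, which encodes a factor of blood cells that acts on branched actin, was lower too, at 254.8 with DMSO and 42.7 with TRIAC. The other coronins *CORO1B*, *CORO1C*, *CORO2A*, *CORO2B*, *CORO6* and *CORO7* have no row.

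*CORO1A* lies on chromosome 16 from 30183602 to 30189076, with 11 exons in its canonical transcript. Of its 50-base windows, 6.35% occur in an unprocessed pseudogene on the same chromosome and 4.76% in the antisense RNA *CORO1A-AS1*, which shares 124 exonic bases with it. The upstream window shown above also reaches into the last exon of this antisense RNA. As with *TUBB1*, reads of the antisense RNA cannot be told apart from those of *CORO1A* without strand. Neither the pseudogene nor the antisense RNA has a row.

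Levels of different genes were compared per kb of the length listed in the table, which is 3496 bases for *TUBB1*, 3460 for *ESPN*, 887 for *MYL4* and 1825 for *CORO1A*. In control cells the level per kb was 361.6 for *MYL4*, 69.6 for *CORO1A*, 9.79 for *TUBB1* and 6.72 for *ESPN*. In TRIAC-treated cells it was 1211 for *MYL4*, 265.0 for *TUBB1*, 154.0 for *ESPN* and 3.39 for *CORO1A*. *MYL4* was thus the most abundant of the 4 genes in both groups, and *CORO1A* went from second to last. The ratio between *MYL4* and *TUBB1* per kb narrowed from 36.9 in control cells to 4.57 in TRIAC-treated cells. *CORO1A* was 7.11 times above *TUBB1* per kb in control cells, and *TUBB1* was 78.3 times above *CORO1A* in TRIAC-treated cells. *TUBB1* and *ESPN* were the nearest pair in both groups, at 1.46 and 1.72 times. Without a spread over libraries it is not known which neighbours in this order differ.

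The sum of the 4 genes per kb was 447.8 with DMSO and 1634 with TRIAC. *MYL4* made up 80.8% of it with DMSO and 74.1% with TRIAC. *TUBB1* went from 2.19% to 16.2%, *ESPN* from 1.50% to 9.42% and *CORO1A* from 15.6% to 0.207%. The shares of *MYL4* and *CORO1A* were thus smaller in the treated cells and those of *TUBB1* and *ESPN* larger. The size of these shares, and of the ratios between genes per kb, depends on the division by length. Undivided, *MYL4* and *TUBB1* stood at 320.7 and 34.2 with DMSO and at 1074 and 926.6 with TRIAC. Among all 143 rows by level per kb, *TUBB1* stood 118th with DMSO and 32nd with TRIAC, *ESPN* 124th and 47th, *MYL4* 34th and 12th, and *CORO1A* 75th and 124th.

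The rows whose levels per kb in both groups were most like those of each gene were named by the Euclidean distance on the log2 scale, over the 2 group values. For *TUBB1* they were *ALAS2*, the erythroid enzyme that begins heme synthesis, at a distance of 0.54, *NETO2* at 0.69 and *ESPN* at 0.95. For *ESPN* they were *ALAS2* at 0.62 and the rows *LINC00891* and *LOC100132741*, which hold the same values, at 0.64. For *MYL4* they were *KLF1*, an erythroid transcription factor, at 0.70, *S100A4*, a calcium-binding protein, at 0.74 and *FAM178B* at 1.17. *ALAS2* had 10.0 per kb with DMSO and 182.0 with TRIAC, between *TUBB1* and *ESPN* in the treated cells. *KLF1* had 224.0 and 1293 per kb. For *CORO1A* the nearest rows were *ADM2*, a peptide hormone, at 0.37, *IL20RB*, a cytokine receptor subunit, at 0.55 and *HSPA6*, a heat shock protein, at 1.01. With 2 values per gene this likeness is a description only.

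**Figure D2:**
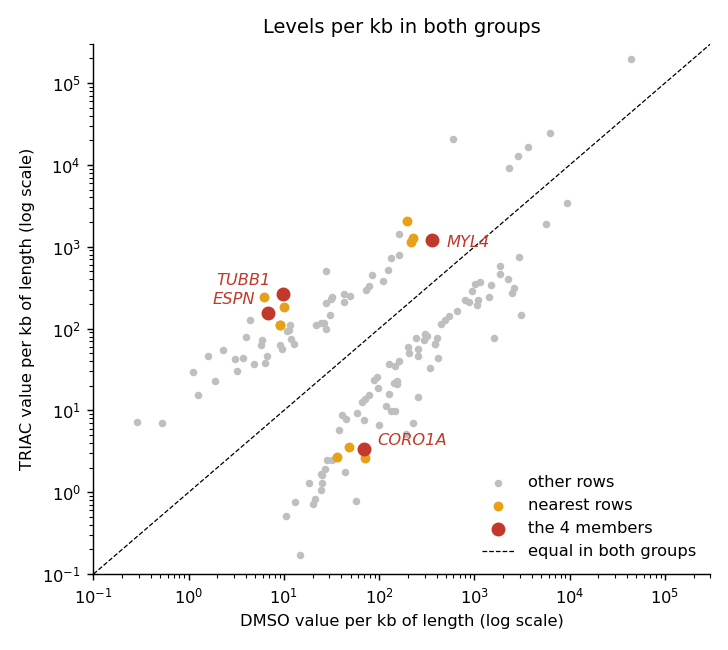
Value per kb of listed length in DMSO-treated cells (horizontal axis) and TRIAC-treated cells (vertical axis), both on log axes, for the 140 rows above 0 in both groups. Red points are the 4 genes, orange points their nearest rows and the dashed line marks equal values; *CORO1A*, at 69.6 and 3.39 per kb, is the only 1 of the 4 below the line.

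The table holds rows that differ between the groups, so it cannot check the label of K562 as erythroleukemia cells, and markers without a row could be high or absent in both groups. Of 14 erythroid markers 9 have a row, all with higher values in TRIAC-treated cells, where 42.7% of all rows were higher. Among them *HBG2*, the fetal γ-globin, had a value of 25809 with DMSO and 114251 with TRIAC. Of 7 granulocyte and monocyte markers *SPI1*, which encodes PU.1, has a row, at 359.3 with DMSO and 79.1 with TRIAC, and of 6 lymphoid markers *CD3D* has one, at 119.9 and 17.6. Both were lower, as *CORO1A* was, where 57.3% of all rows were lower. Their part in the difference of *CORO1A* was not tested.

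Beyond the 4 genes, 4 further genes of the cytoskeleton lists have a row, and 194 of the 202 distinct listed genes have none and were not analysed here. Of 17 genes of the red cell membrane skeleton 3 have a row, all higher in TRIAC-treated cells, where 42.7% of all rows were higher. *SLC4A1*, the anion exchanger that anchors the skeleton, was at 15.2 with DMSO and 209.8 with TRIAC. *EPB42*, which encodes protein 4.2, was at 9.31 and 107.1, and *DMTN*, the actin bundler dematin, was at 190.4 and 781.0. The ratios of these 3 genes, from 4.10 to 13.8, lie between those of *MYL4* and *ESPN*. None of the 27 genes in the list of microtubule regulators and none of the 20 in that of leukocyte actin regulators has a row. These lists of regulators are not complete. *CORO1A* and *GMFG*, which act on actin in blood cells, were listed under coronins and actin turnover and have rows. *FMNL1*, which also acts on actin in blood cells, and *GAS2L1* and *KIF21B*, which act on microtubules, are in no list and have rows.

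The annotation columns of the table give further functional terms for the 4 genes, which were chosen as cytoskeleton genes, so that they carry such terms is no finding. *ESPN*, *MYL4* and *CORO1A* share the term for actin filament binding, which 5 of the 143 rows carry. The other 2 rows are *FMNL1*, a formin of leukocytes that elongates actin filaments, and *RCSD1*, which encodes a protein that binds an actin-capping protein. *FMNL1* was at 689.2 with DMSO and 201.8 with TRIAC, and *RCSD1* at 422.8 and 83.5. So 2 of the 5 rows had higher values and 3 had lower ones, where 42.7% of all rows were higher and 57.3% lower. Of the 5 rows, 3 are genes chosen from these values. *MYL4* and *CORO1A* are the 2 rows with the term for binding of actin monomers, in opposite directions. *TUBB1* shares the term for microtubules with *GAS2L1*, *NDRG1* and *KIF21B*, of which *GAS2L1*, a linker of actin and microtubules, was higher, at 211.4 with DMSO and 1126 with TRIAC. *KIF21B*, a microtubule motor of the kinesin family, was lower, at 352.5 and 53.8.

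In all, 22 of the 143 rows carry a word for actin, myosin, tubulin, microtubules, spectrin, stereocilia or the cytoskeleton in their annotation, 11 with higher and 11 with lower values in TRIAC-treated cells. Leaving out the 4 genes, which were chosen from these values, 8 were higher and 10 lower. The higher share of these 18 rows was 44.4%, near the 42.7% of all rows and the 41.3% of rows without such a word. The 4 genes take both ends of the annotated rows, with *TUBB1* and *ESPN* highest and *CORO1A* lowest by ratio, and *MYL4* is the lowest of the 11 higher rows. Among the lower rows, *VIM*, which encodes vimentin, the intermediate filament protein of mesenchymal cells and leukocytes, was at 12128 with DMSO and 4059 with TRIAC, and *SPTAN1*, which encodes the α-spectrin of cells other than red cells, at 561.1 and 109.8. Centring moves every ratio by the same amount, and the median comes from rows selected for a difference. With the ratios centred on it, 11 annotated rows were at least 2-fold higher and 1, *CORO1A*, at least 2-fold lower, and *VIM*, *VIM-AS1* and *FMNL1* turned to slightly higher values. Over all rows the same centring gave 61 higher and 37 lower in place of 61 and 82. None of the 4 genes could turn with this centring, since *CORO1A* lies below the median and the other genes were already higher.

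**Figure D3:**
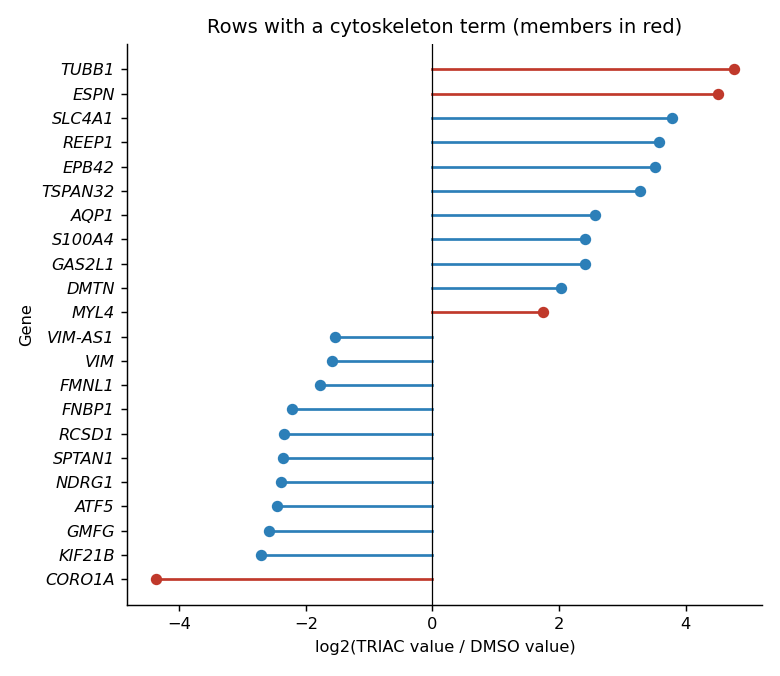
Log2 ratio of the TRIAC value to the DMSO value (horizontal axis) for the 22 rows with a cytoskeleton term (vertical axis), 1 value per group and no error. The 4 genes are in red and the others in blue; ratios run from -4.36 for *CORO1A* to 4.76 for *TUBB1*.

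**Figure D4:**
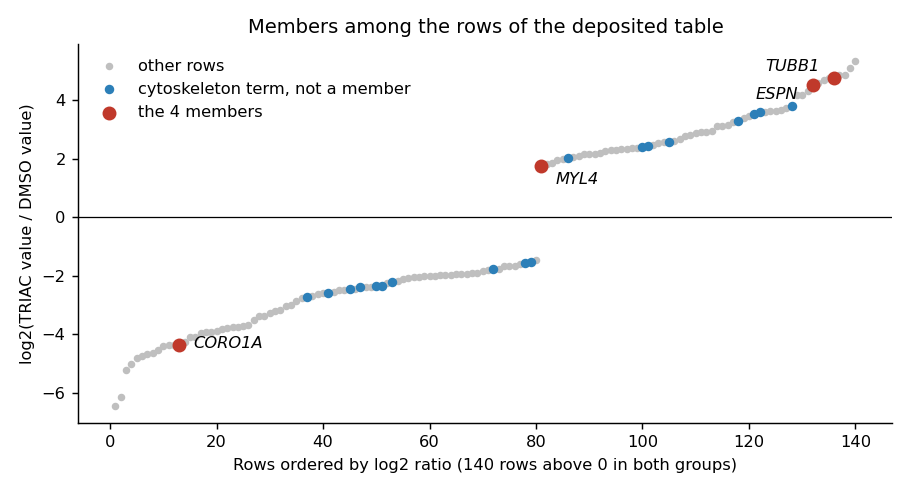
The 140 rows above 0 in both groups, ordered by the log2 ratio of the TRIAC value to the DMSO value (vertical axis). Red points are the 4 genes and blue points other rows with a cytoskeleton term; *MYL4* is the first row above 0 and *CORO1A* is 13th from the lowest.

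The products of the 4 genes differ from their relatives to unequal degrees, by translation of GENCODE 44 coding sequences. *TUBB1* has 451 residues, of which 78.3% to 79.8% of the aligned ones match those of 7 other β-tubulins. *CORO1A* has 461 residues and matches *CORO1B*, *CORO1C* and *CORO6* at 66.7% to 69.1% and *CORO2A* and *CORO2B* at 45.6% to 46.9%. *ESPN* has 854 residues and matches *ESPNL* at 37.8%. Of these relatives none shares a window of 50 bases with the transcripts of the 4 genes, while the pseudogenes of *ESPN* and *CORO1A* named above do.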

How the data were processed

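K562 RNA-seq libraries were grouped by treatment from their titles. The deposited table holds 1 expression signal value per group, made by the authors by combining 2 libraries, with no unit stated and no total count, so depth and precision are unknown. Equal low values occur in genes of different lengths, so division by length was not assumed. Per the submitters' processing notes the build was GRCh38 and the tools included RSEM, Bowtie2, edgeR, CASAVA 1.8, FastQC and Trimmomatic, while the design text names BWA, TopHat and Cufflinks. Which of them gave the deposited values remains a point not given in the sources used here. Further columns hold the authors' fold changes, p-values and directions, and none was used. No sample column was left unmatched.

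Ratios were computed without a pseudocount, and rows at 0 in a group had no ratio. Called means a ratio of at least 2. Alternatives were pseudocounts of 1 and 10, centring, a 4-fold limit, a filter on low values, other lengths and other likeness measures. The members, the 8 gene lists and the tests were chosen with earlier results of these data known. Named genes are the 4 members, listed genes with a row, the 3 nearest rows of each and the family members; marker genes came from the fixed marker list, and annotated rows and *SLMO2-ATP5E* were chosen after their values were seen. Coordinates are RefSeq GRCh38.p14, and transcripts and canonical forms are GENCODE 44. Promoters came from RefSeq. No RefSeq protein table was used, and in its place coding lengths and proteins came from GENCODE coding sequences, aligned globally with BLOSUM62, and not printed. The log2 ratios, the fold calls and the search for the nearest row were tested on simulated data, and the motif search on made sequences. Ranks, shares, centring and the counts of listed and annotated rows were not tested in this way. Software was Biopython 1.88, numpy 2.4.6, pandas 2.3.3, matplotlib 3.10.9 and Python 3.11.15.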

Additional observations from a re-analysis of the deposited data

How the results depend on the processing

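A pseudocount cannot change the direction of a ratio, and centring on a negative median can only raise one. So none of the 4 genes could have turned. With centring this holds for *CORO1A* because its ratio lies below the median. The log2 ratios with pseudocounts of 1 and 10 and after centring, in this order, were 4.72, 4.40 and 6.58 for *TUBB1*, 4.46, 4.03 and 6.34 for *ESPN*, and -4.16, -3.08 and -2.54 for *CORO1A*. For *MYL4* they were 1.71 with a pseudocount of 10 and 3.56 after centring. A pseudocount draws low values together by its construction, and centring takes the median of -1.82 from each log2 ratio. *TUBB1* was 3rd from the highest and *ESPN* 5th among the 105 rows above the lower quartile of mean value, which left out *CORO1A*, and they were 3rd and 4th with a pseudocount of 10. The order of the 4 genes by level was the same per kb of coding length, per kb of the canonical transcript and without division by length. Their shares and the ratios between them were not compared in this way. Of the 8 listed genes with a row 6 were higher and 2 lower, where 42.7% of all rows were higher and 57.3% lower. The 8 include the 4 genes chosen from these values. After centring, the lower genes of the lists numbered 1 in place of 2, and the lower annotated rows 1 in place of 11. Over all rows the lower ones went from 82 to 37, since centring on a negative median can only remove lower calls. Counting only rows with a word for actin gave 6 higher and 5 lower rows, by its construction. Of the 12 places held by nearest rows, of which *ALAS2* takes a pair, 0 were kept by log2 ratio alone. The counts of annotated rows with other settings, centring of counts and the canonical transcript length were chosen after seeing the data. No paired analysis was possible because the table gives 1 value per group, and for the same reason leaving out a replicate was not run. Depth is unknown, so the precision of low values cannot be given.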

Other observations

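Other rows with a cytoskeleton term and higher values in TRIAC-treated cells were *REEP1*, which shapes the endoplasmic reticulum and binds microtubules, at 6.87 with DMSO and 82.3 with TRIAC, *TSPAN32*, a tetraspanin of blood cells, at 34.7 and 336.3, and *AQP1*, the red cell water channel, at 26.5 and 157.6. *S100A4* was at 114.0 and 608.7. Lower rows were *FNBP1*, which links membrane curvature to actin, at 200.5 and 43.3, *NDRG1*, a stress-responsive gene, at 1270 and 241.0, and *ATF5*, a transcription factor annotated with tubulin binding, at 2235 and 406.7. *VIM-AS1*, annotated like *VIM*, was at 1996 and 688.2, with a ratio of 0.345 against 0.335 for *VIM*. Any part of *VIM* reads in its value was not tested. Without *VIM-AS1* the annotated rows were 11 higher and 10 lower. These rows were chosen after their values were seen, and no value here has an error.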
